A study of Mus musculus with 13 samples.

Results

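The genes described here are the receptor CSF1R with both of its ligands, and the transcription factors that set up and hold the microglial state. They were taken by symbol from the deposited expression table: Csf1r, Csf1, Il34, Spi1, Irf8, Runx1, Sall1, Mef2a and Mef2c, which are 9 of the 39171 genes listed. All 9 were found. The table holds 13 RNA-seq libraries from the spinal cord of C57BL/6 mouse pups, made from cells separated by flow cytometry. Microglia were taken as CD11b+ cells and astrocytes as cells carrying the Aldh1l1-GFP reporter. Knockout (KO) mice lack Il33, which encodes the cytokine IL-33, and the wild-type (WT) controls are littermates. There were 3 WT and 3 KO microglia libraries, all at postnatal day 12. There were 3 WT and 4 KO astrocyte libraries, all of them from day 12 except WT astrocytes 3 and KO astrocytes 2, which are from day 9. The study's title concerns IL-33 made by astrocytes and its part in synapse engulfment by microglia. The knockout is present in every cell of the mouse, so each comparison of genotypes is between cells that developed in animals with and without Il33. Nothing used here states the sex of the pups, any pooling of animals, or whether the microglia came from mice with the reporter.

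CSF1R is a receptor tyrosine kinase on the surface of microglia and other macrophages, and its signal is needed for these cells to survive. It is activated by 2 ligands that do not resemble each other in sequence: CSF1, made by glia and many other cells, and IL-34, which in brain is made largely by neurons. Inside the cell, PU.1 (the product of Spi1), IRF8 and RUNX1 act during the origin of microglia from yolk sac progenitors. SALL1 and the MEF2 factors act on the identity that microglia take on in the nervous system.

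The targeted gene was low in every KO astrocyte library. Il33 stood at 96.3, 113 and 108 FPKM in the WT astrocytes and at 2.28, 2.05, 0.424 and 0.733 FPKM in the KO astrocytes (exact two-sided permutation test, p = 0.0286, the smallest that 4 against 3 libraries can give). FPKM, the unit throughout, is the number of sequenced fragments per length of transcript and per total mapped, so levels of different genes can be compared. Summed over 10 markers, microglial genes reached 7090 to 7857 FPKM in the microglia and 8.51 to 51.0 in the astrocytes. Astrocyte markers reached 7010 to 12100 FPKM in the astrocytes and 73.1 to 118 in the microglia, also over 10 genes. The labels of the cell types thus held in all 13 libraries. Neither sort was free of other cells' RNA: markers of myelinating oligodendrocytes summed to 4551 to 8184 FPKM in the astrocytes and 1073 to 2645 in the microglia. In the microglia the other lists reached 232.5 to 678 FPKM for border macrophages, 60.4 to 268 for neutrophils, 13.3 to 52.9 for monocytes, 24.9 to 88.4 for oligodendrocyte precursors, 5.68 to 58.6 for neurons, 19.4 to 33.9 for vascular cells and 2.24 to 15.6 for fibroblasts. The same lists in the astrocytes gave 1.04 to 5.99, 0.189 to 1.49, 9.14 to 63.1, 363 to 550.1, 39.9 to 371, 26.9 to 87.1 and 299 to 550 FPKM. By group means, most of the astrocyte sum came from Vcan for monocytes, Olig1 for precursors and Igfbp2 for fibroblasts. Col1a2 came next for fibroblasts. Pdgfra, Cspg4, Col1a1, Dcn and Lum were low in astrocytes, and Ly6c2, Plac8 and Chil3 were at 0. Whether RNA of those other cells supplied these astrocyte sums was not tested. In bulk samples such as these, fewer cells of a type and less RNA per cell cannot be told apart.

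**Figure D1:**
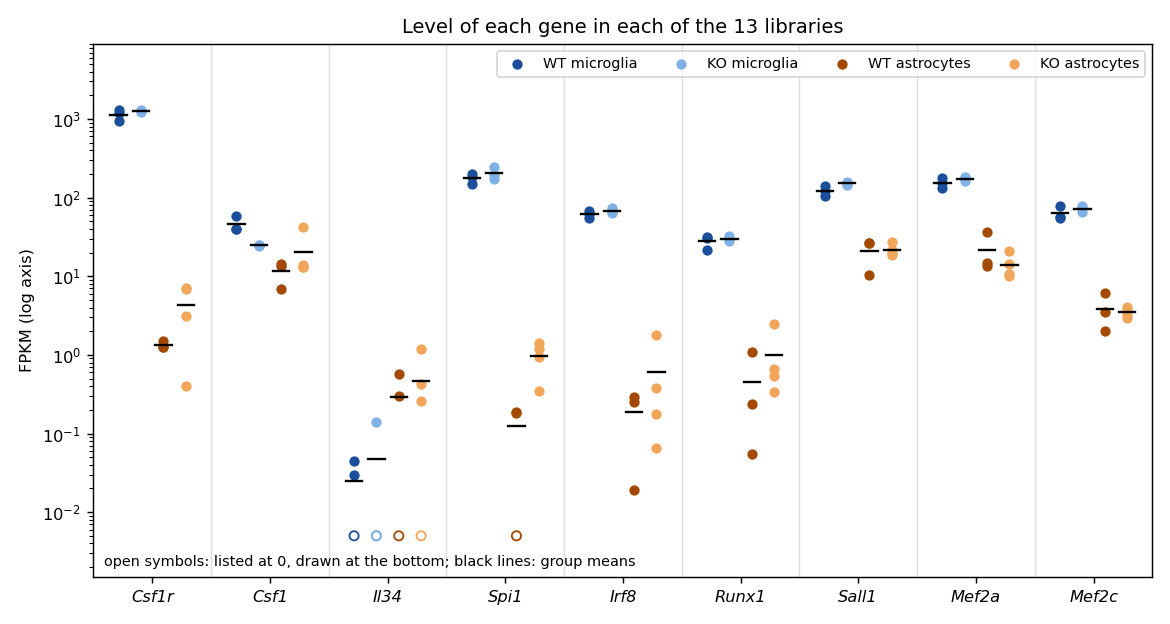
Level of the 9 genes in FPKM, on a log axis, in each of the 13 libraries; each point is a library, black lines are group means, and values listed at 0 are drawn as open circles at the bottom. Csf1r stands highest in microglia and near 1 FPKM in WT astrocytes, and Il34 is near or at 0 everywhere. Of the genes other than Il34, Csf1 is the one whose levels in the 2 cell types lie closest together on this axis.

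Csf1, which encodes the secreted and membrane-bound ligand, was present in both cell types and was higher in microglia than in astrocytes of the WT mice. In the WT microglia it stood at 40.4, 40.2 and 58.7 FPKM. In the KO microglia it stood at 25.1, 25.1 and 24.5 FPKM. Every KO library was below every WT library, and the 3 KO libraries lay close to each other. The means were 46.4 ± 10.6 FPKM (SD, n = 3) in WT and 24.9 ± 0.354 FPKM (SD, n = 3) in KO microglia, a ratio of WT to KO of 1.86. The exact permutation test gave p = 0.10, the smallest that 3 against 3 libraries can reach. In limma's fit over 15891 genes, the KO minus WT difference was -0.85 (SE 0.19) on the log2(FPKM + 1) scale, with a Benjamini-Hochberg adjusted p of 0.490, so it did not pass the threshold of 0.05. By p it ranked 156 of the 15891 genes. The authors' deposited table for microglia, which rests on counts, lists Csf1 among its 483 genes with an adjusted p of 0.00478. In the authors' deposited table the WT mean is 4285 and the KO mean 2453 normalised counts, a log2 ratio of WT over KO of 0.746 (SE 0.172). The direction was the same in both analyses and the call was not.

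Other transcripts differed between the same 6 libraries. The summed level of 12 genes that are induced while tissue is dissociated (Fos, Jun, Egr1, Zfp36 and others) was 4989, 3984 and 5572 FPKM in WT microglia and 2920, 2593 and 3000 FPKM in KO microglia, with none of the 12 at 0 in any of these libraries; in astrocytes the sum was 54.7 to 83.5 FPKM. Neutrophil markers summed to 268, 136 and 208 FPKM in WT and 117, 69.8 and 60.4 FPKM in KO microglia over 9 genes, none of them at 0. Neuronal markers summed to 58.6, 10.98 and 14.2 FPKM in WT and 6.32, 5.68 and 6.66 FPKM in KO microglia over 10 genes, with 1 gene at 0 in WT microglia 3 and 1 in KO microglia 1. Fibroblast and meningeal markers summed to 15.6, 5.44 and 5.32 FPKM in WT and 3.78, 2.24 and 3.86 FPKM in KO microglia over 5 genes, also with 1 at 0 in each of those libraries. All 4 sums were higher in all 3 WT libraries than in any KO library, as Csf1 was. The sums of the other marker lists overlapped between WT and KO microglia. WT microglia 3 had the highest Csf1 and the highest sum of induced genes, while the neutrophil, neuronal and fibroblast sums were highest in WT microglia 1. The part of these transcripts in the difference in Csf1 was not tested.

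**Figure D2:**
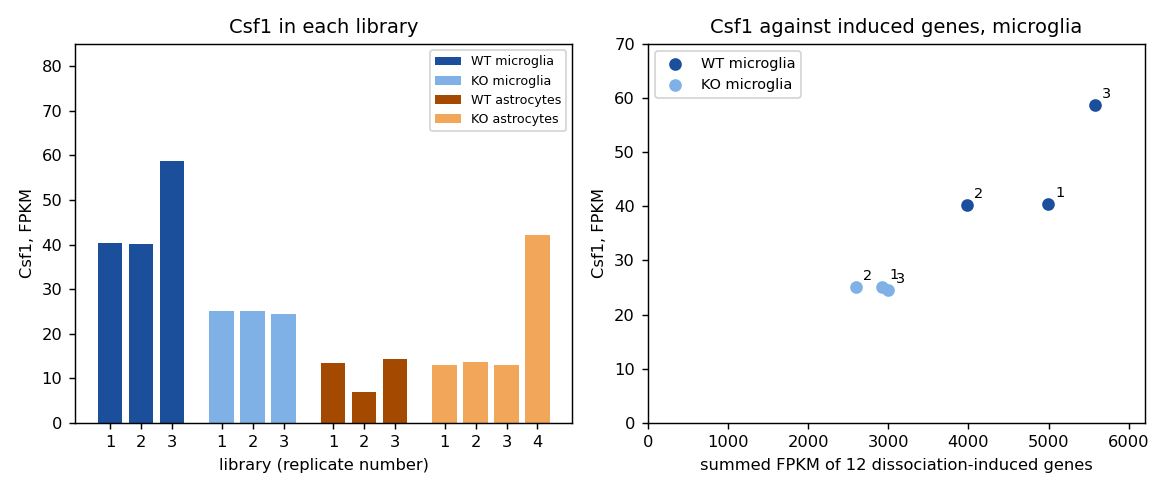
Left, bars give Csf1 in FPKM in each of the 13 libraries, numbered by replicate. Right, Csf1 in FPKM is plotted against the summed FPKM of 12 dissociation-induced genes in the 6 microglia libraries, numbered by replicate: the WT libraries, at 40.2 to 58.7 FPKM of Csf1, lie above and to the right of the KO libraries, at 24.5 to 25.1 FPKM.

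In WT astrocytes Csf1 stood at 13.3, 6.89 and 14.3 FPKM. In KO astrocytes it stood at 13.0, 13.7, 12.9 and 42.1 FPKM. The groups overlapped, and KO astrocytes 4 lay within the range of WT microglia while the other 3 KO libraries lay within the WT range. KO minus WT was 0.64 (SE 0.50) by limma, with an adjusted p of 0.921, and fell to 0.245 without KO astrocytes 4. That library had the highest sum of oligodendrocyte markers of the 13 (8184 FPKM) and the highest Il34, and the part of either in its Csf1 level was not tested. WT microglia exceeded WT astrocytes by 1.96 (SE 0.46), with a limma adjusted p of 0.00416. KO microglia exceeded KO astrocytes by 0.47 (SE 0.42), with a limma adjusted p of 0.367. Without KO astrocytes 4 this second difference was 0.965, with a limma adjusted p of 0.0130, so the call for KO mice turns on that library. The genotype difference in microglia minus that in astrocytes was -1.49 (SE 0.59), with a limma adjusted p of 0.734, and did not pass.

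Csf1 lies on the minus strand of chromosome 3 (GRCm38, 107741048 to 107760469) and Sall1 on the minus strand of chromosome 8 (89027235 to 89044162). These are the 2 genes of the 9 whose KO and WT microglia did not overlap, Csf1 lower and Sall1 higher in KO, where 15.9% of all genes tested did not overlap. For that reason the 250 bases before their start sites are shown here, from RefSeq promoters on GRCm38.p6. RefSeq windows were found for 6 of the 9 genes, 12 windows in all. Each was searched on both strands for 4 motifs: an NF-kB-like site (GGGNNNNNCC), a MEF2-like site (CTANNNNTAG), an IRF-like site (GAAANNGAAA) and a PU.1-like site (GAGGAAGT). Capitals mark the matches, which may overlap each other, and both sequences run 5′ to 3′ along the gene's strand. The Csf1 window is chr3:107760470-107760719 and the Sall1 window, for the outermost start site, is chr8:89044163-89044412.
Csf1: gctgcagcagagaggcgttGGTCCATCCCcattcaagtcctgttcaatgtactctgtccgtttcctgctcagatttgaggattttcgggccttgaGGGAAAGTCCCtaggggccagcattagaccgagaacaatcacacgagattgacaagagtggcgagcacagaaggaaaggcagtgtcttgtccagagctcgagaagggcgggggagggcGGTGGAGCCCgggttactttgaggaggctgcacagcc
Sall1: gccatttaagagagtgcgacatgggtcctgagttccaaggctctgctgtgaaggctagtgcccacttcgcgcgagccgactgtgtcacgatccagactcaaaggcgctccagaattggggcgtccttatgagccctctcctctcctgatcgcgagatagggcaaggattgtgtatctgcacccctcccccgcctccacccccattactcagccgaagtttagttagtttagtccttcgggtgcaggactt
The Csf1 window held 4 matches to the NF-kB-like pattern, counted on both strands. They lie at -231 to -222, at -155 to -146, at -154 to -145 and at -37 to -28 from the start, the middle pair overlapping on opposite strands. No letters of the Sall1 window shown matched any of the 4 patterns, while the other 2 of its 3 RefSeq windows held 1 and 4 NF-kB-like matches. Over all windows of the 6 genes, 7 of 12 held an NF-kB-like match and 0 of 12 a MEF2-like, IRF-like or PU.1-like match. The NF-kB-like pattern is loose: 45.8% of 32851 RefSeq windows of this length hold it, against 3.20% for the MEF2-like, 2.98% for the IRF-like and 2.44% for the PU.1-like pattern. A match describes letters and not binding.

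Il34, the gene of the other ligand, was at or close to 0 in every library (minus strand of chromosome 8, 110741829 to 110805924). It was listed at 0.0444, 0.0295 and 0 FPKM in WT microglia and at 0, 0.141 and 0 FPKM in KO microglia. It was listed at 0, 0.573 and 0.297 FPKM in WT astrocytes and at 0, 0.259, 0.425 and 1.202 FPKM in KO astrocytes. No group stood apart, and 5 libraries were listed at 0. No comparison passed limma's test, with adjusted p of 0.989 for genotype in microglia, 0.981 for genotype in astrocytes, 0.525 between WT cell types and 0.344 between KO cell types. Within astrocyte libraries, log2(FPKM + 1) of Csf1 exceeded that of Il34 by 3.52 ± 0.614 (SD, n = 7), in 7 of 7 libraries (exact two-sided sign-flip permutation test, p = 0.0156, the smallest that 7 libraries allow). Within microglia libraries it did so by 5.07 ± 0.531 (SD, n = 6), in 6 of 6 libraries (exact sign-flip permutation test, p = 0.0312, the smallest that 6 allow). Csf1 was thus the ligand transcript found in both sorted populations, and neurons were not among the cells collected.

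Csf1r, the receptor, was among the most abundant messages of microglia. It stood at 1303, 1181 and 935 FPKM in WT microglia and at 1263, 1304 and 1244 FPKM in KO microglia. The groups overlapped, and WT microglia 3 was the lowest. Among protein-coding genes its level ranked 33 to 38 in the WT and 27 to 28 in the KO libraries. The means were 1140 ± 188 and 1270 ± 30.6 FPKM (SD, n = 3 each), and KO minus WT was 0.17 (SE 0.17, 95% interval -0.26 to 0.60) with a limma adjusted p of 0.772. In astrocytes Csf1r stood at 1.25, 1.27 and 1.49 FPKM in WT and at 6.95, 0.404, 7.04 and 3.09 FPKM in KO. Of the KO astrocytes, 3 were above all WT libraries and 1, KO astrocytes 2, was below all of them. KO minus WT was 0.82 (SE 0.56) in astrocytes with a limma adjusted p of 0.921, and the exact permutation test gave p = 0.229. Microglia exceeded astrocytes by 8.56 (SE 0.46) in WT and by 7.91 (SE 0.42) in KO mice, with limma adjusted p of 1.08e-07 and 8.57e-08. Csf1r lies on the plus strand of chromosome 18 (GRCm38, 61100598 to 61132149), and 873 bases of its exons (15.1%) overlap exons of Hmgxb3 on the opposite strand. With no statement on strand among the labels, reads of that stretch cannot be assigned to either gene.

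Receptor and ligands were thus distributed unequally. In WT microglia the mean of Csf1 was 0.0408 of that of Csf1r, and in WT astrocytes the mean of Csf1 was 8.61 times that of Csf1r. In KO mice the same ratios were 0.0196 and 4.68. The ratio in KO astrocytes varied between libraries: it was 1.87, 34.04, 1.84 and 13.6 in the 4 libraries, and that of the means was 2.76 without KO astrocytes 4, a check added after seeing the data. PTPRZ1, a receptor-type phosphatase reported to bind IL-34, showed the opposite distribution to Csf1r. Ptprz1 was at 307 ± 31.7 FPKM (SD, n = 3) in WT astrocytes and 304 ± 48.7 (SD, n = 4) in KO astrocytes, against 7.45 ± 4.59 and 4.82 ± 1.75 (SD, n = 3 each) in WT and KO microglia. The microglia minus astrocyte difference was -5.27 in WT and -5.66 in KO mice, with limma adjusted p of 3.09e-06 and 7.76e-07. Sdc1, which encodes the proteoglycan syndecan-1 and is also reported to bind IL-34, was low, with means of 0.313 and 0.0536 FPKM in WT and KO microglia and 1.48 and 1.85 in WT and KO astrocytes. Neither passed by genotype, with limma adjusted p of 0.842 for Ptprz1 in microglia, 0.999 for Ptprz1 in astrocytes and 0.986 for Sdc1 in astrocytes.

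Spi1 encodes PU.1, the ETS factor of the macrophage lineage that acts directly on Csf1r. It stood at 199, 181 and 150 FPKM in WT microglia and at 245, 173 and 193 FPKM in KO microglia. The groups overlapped. Astrocytes had 0.187, 0.182 and 0 FPKM in WT and 1.19, 0.351, 1.42 and 0.942 FPKM in KO. Here the groups did not overlap, with all 4 KO libraries above all 3 WT libraries (exact permutation test on means, p = 0.0571), while limma gave 0.75 (SE 0.43) and an adjusted p of 0.921. Microglia exceeded astrocytes by 7.14 (SE 0.21) in WT and 6.59 (SE 0.20) in KO mice, with limma adjusted p of 5.08e-09 and 2.65e-09.

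IRF8 is a partner of PU.1 on composite DNA sites, and RUNX1 binds with CBFB in blood progenitors. Irf8 stood at 62.6, 67.9 and 55.4 FPKM in WT and at 65.3, 73.8 and 63.3 FPKM in KO microglia. Runx1 stood at 31.5, 30.3 and 21.6 FPKM in WT and at 32.4, 28.1 and 30.0 FPKM in KO microglia. Both overlapped between genotypes, and in WT microglia 3 both were at their lowest. Irf8 in astrocytes stood at 0.292, 0.0189 and 0.250 FPKM in WT and 1.81, 0.0646, 0.377 and 0.177 in KO. Runx1 in astrocytes stood at 1.08, 0.236 and 0.0544 FPKM in WT and 2.47, 0.334, 0.546 and 0.661 in KO. KO astrocytes 1 was the highest for both genes, and it also had the highest sum of neuronal markers of the 13 libraries (371 FPKM); the part of that RNA was not tested. Microglia exceeded astrocytes in WT mice by 5.64 (SE 0.34) for Irf8 and 4.14 (SE 0.35) for Runx1, with limma adjusted p of 2.46e-07 and 3.12e-06. In KO mice the differences were 5.45 and 3.91, with limma adjusted p of 1.38e-07 and 2.11e-06.

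Sall1 encodes a zinc finger factor that in the adult brain is known as largely particular to microglia among macrophages. It stood at 122, 141 and 104 FPKM in WT microglia and at 147, 159 and 149 FPKM in KO microglia. All 3 KO libraries were above all 3 WT libraries, the means being 122 ± 18.5 and 152 ± 6.73 FPKM (SD, n = 3 each), a ratio of KO to WT of 1.24. The exact permutation test gave p = 0.10, the smallest possible, and limma gave 0.32 (SE 0.16) with an adjusted p of 0.638, which did not pass. The induced-gene, neutrophil, neuronal and fibroblast sums given for Csf1 separate the same libraries, and their part here was not tested. In astrocytes Sall1 was not near 0: it stood at 10.3, 26.8 and 26.4 FPKM in WT and at 19.7, 27.4, 21.9 and 18.4 FPKM in KO. These were 7.49 to 20.0% of the microglial mean. Microglia exceeded astrocytes by 2.75 (SE 0.30) in WT and 2.89 (SE 0.27) in KO mice, with limma adjusted p of 2.08e-05 and 6.77e-06.

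MEF2A and MEF2C are paralogous MADS-box factors whose sites are common in microglial enhancers. Mef2a stood at 131.5, 176 and 153 FPKM in WT and at 179, 184 and 161 FPKM in KO microglia. Mef2c stood at 57.4, 78.3 and 55.2 FPKM in WT and at 64.99, 78.8 and 73.2 FPKM in KO microglia. The genotypes overlapped for both. In astrocytes Mef2a stood at 13.4, 36.6 and 14.7 FPKM in WT and 20.9, 10.6, 10.1 and 14.5 FPKM in KO. Mef2c stood at 3.52, 1.99 and 6.06 FPKM in WT and 3.74, 3.20, 4.06 and 2.94 FPKM in KO astrocytes. WT astrocytes 2 had the highest Mef2a and the lowest Mef2c of the 7. Mef2a was above Mef2c in each of the 13 libraries: Mef2c minus Mef2a was -1.26 ± 0.149 (SD, n = 6) in microglia (exact sign-flip permutation test, p = 0.0312, the smallest possible). It was -1.90 ± 0.872 (SD, n = 7) in astrocytes (exact sign-flip permutation test, p = 0.0156, the smallest possible). Microglia exceeded astrocytes in WT mice by 2.75 (SE 0.36) for Mef2a and 3.93 (SE 0.28) for Mef2c, with limma adjusted p of 8.56e-05 and 9.87e-07. In KO mice the differences were 3.47 and 4.13, with limma adjusted p of 6.99e-06 and 3.03e-07.

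The order of the levels changed between cell types. In WT microglia the means ran from Csf1r through Spi1 (177 FPKM), Mef2a (153.5), Sall1 (122), Mef2c (63.6), Irf8 (62.0), Csf1 (46.4) and Runx1 (27.8) to Il34. The ranges of Spi1 and Mef2a, of Mef2a and Sall1, of Mef2c and Irf8, and of Irf8 and Csf1 overlapped, so these neighbours cannot be ordered. In KO microglia the order was the same except that Runx1 (30.2 FPKM) stood above Csf1 (24.9), with ranges that did not overlap. WT astrocytes began with Mef2a (21.6 FPKM) and Sall1 (21.2), which overlapped, and Csf1 (11.5). KO astrocytes began with Sall1 (21.9 FPKM), Csf1 (20.4) and Mef2a (14.1), each overlapping the next.

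Between cell types, 8 of the 9 genes were called higher in WT microglia than in WT astrocytes, all but Il34, and 7 of the 9 in KO mice, all but Il34 and Csf1. Of the 16259 genes tested, 29.1% were called higher in WT microglia and 31.9% in KO microglia. The medians over the 9 genes were 3.93 in WT and 3.91 in KO mice, against 0.21 and 0.24 over all genes tested. The list was put together from genes known in microglia, so this direction is not independent evidence. Scaling bears on the size of these differences: the sums of FPKM per library ran from 1188572 to 1430186 in microglia and from 1683014 to 3837234 in astrocytes. Rescaling to equal protein-coding sums moved the median of all genes to 0.51 in WT mice, and quantile normalisation moved it to -0.07, with 8 of the 9 called higher in either case. Of the genes called between WT cell types, 54.3% were higher in microglia as deposited and 43.3% after quantile normalisation, and between KO cell types 56.0% and 44.2%.

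The astrocyte levels of the 9 genes fell into different ranges relative to microglia. The median of the 10 microglial markers in an astrocyte library was 0.0232 to 0.650% of its microglial mean. Csf1r, at 0.0335 to 0.584%, and Spi1, at 0 to 0.746%, lay within or close to that range. Irf8 lay at 0.0292 to 2.80% and Runx1 at 0.187 to 8.52%, while single markers of the 10 ran from 0 to 2.35%. Mef2c (2.92 to 8.91%), Mef2a (6.18 to 22.3%), Sall1 (7.49 to 20.0%) and Csf1 (19.3 to 118%) lay above both marker ranges in all 7 libraries. KO astrocytes 2, the KO library at day 9, had the lowest sum of microglial markers (8.51 FPKM) and also the lowest Csf1r, Spi1, Irf8 and Runx1 of the 4 KO astrocyte libraries. The part of microglial RNA in the astrocyte values of Csf1r, Spi1, Irf8 and Runx1 was not tested.

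**Figure D3:**
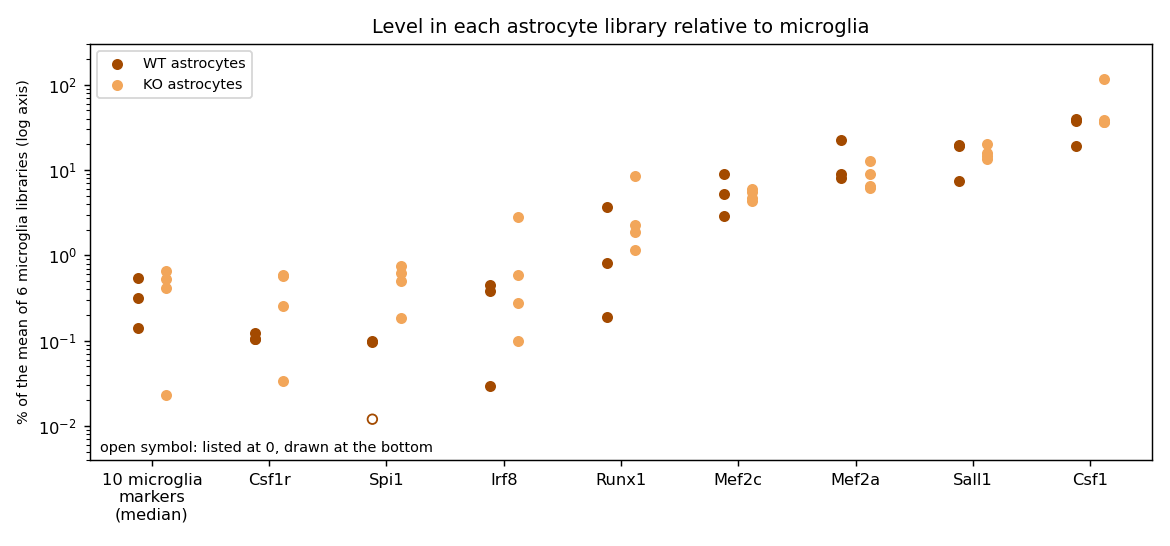
Level in each of the 7 astrocyte libraries as a percentage of the mean of the 6 microglia libraries, on a log axis; the left column is the median of 10 microglial markers, an open circle is a value listed at 0. Csf1r and Spi1 lie near the marker column, between 0 and 0.746%, while Mef2c, Mef2a, Sall1 and Csf1 lie at 2.92% or above.

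Between genotypes, 0 of the 9 genes passed limma's test in microglia and 0 of the 9 in astrocytes. In microglia 1 of the 9 (Csf1) had an unadjusted p under 0.05, where 7.96% of all genes tested did. In astrocytes 0 of the 9 did, where 4.19% of all genes tested did. Few genes passed at all in this fit of FPKM: 0.0818% of 15891 genes in microglia and 0.0224% of 13401 in astrocytes were called in either direction. The number depends on the method. The authors' table for microglia, which rests on counts, lists 483 genes, and limma called 258 with Xist as a covariate. By overlap of the groups, 2 of 9 genes (Csf1 and Sall1) stood apart in microglia, where 15.9% of all genes tested did, and 1 of 9 (Spi1) in astrocytes, where 4.69% did. In microglia 8 of the 9 differences were positive, between 0.03 and 0.32, and that of Csf1 was negative; the median was 0.17, against 0.02 over all genes. In astrocytes 7 of the 9 were positive, with a median of 0.31 against 0.0014 over all genes. The share of positive differences over all genes was not computed, so these counts of signs have no background. For the other lineage factors in microglia, limma's 95% intervals ran from -0.29 to 0.68 for Spi1, -0.25 to 0.49 for Irf8, -0.35 to 0.61 for Runx1, -0.21 to 0.59 for Mef2a and -0.27 to 0.66 for Mef2c. A doubling in either direction, which is 1 on this scale, lies outside each of these intervals of the main fit. With Xist as a covariate the differences were 0.439 (SE 0.254) for Spi1, 0.292 (SE 0.181) for Irf8 and 0.488 (SE 0.183) for Runx1. For Mef2a and Mef2c they were 0.193 (SE 0.235) and 0.398 (SE 0.254), and no intervals were computed for that fit. The difference between the genotype effects of the 2 cell types was called for 0 of the 9, and for 0.141% of 16259 genes. Of the 9, 1 (Csf1) had an unadjusted limma p under 0.05, against 6.62% of all genes tested. The authors' deposited tables list none of the other 8 genes in microglia and none of the 9 among the 10 genes for astrocytes.

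**Figure D4:**
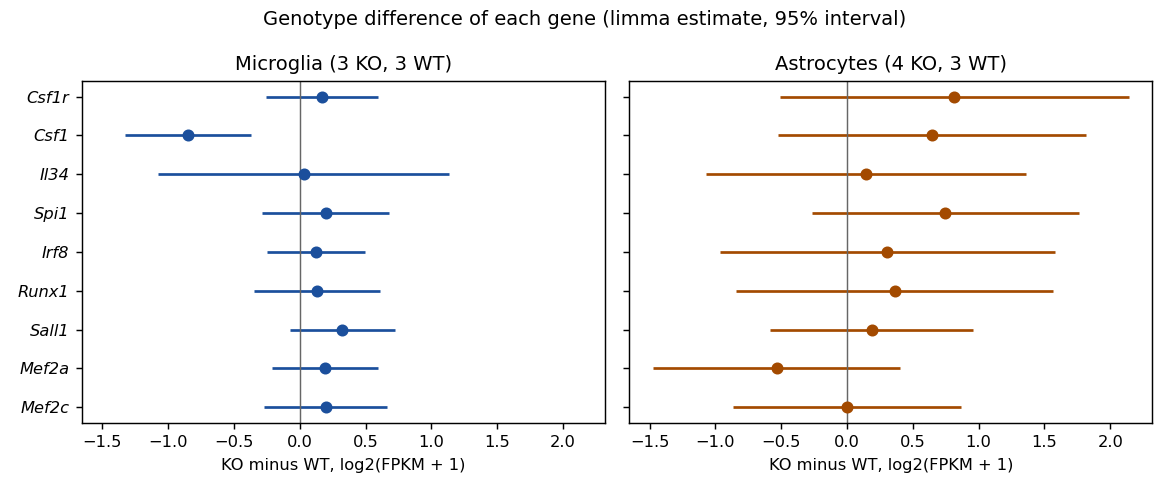
KO minus WT difference of each gene on the log2(FPKM + 1) scale, from limma, as a point with its 95% interval, for microglia on the left and astrocytes on the right. In microglia only the interval of Csf1, centred at -0.85, leaves out 0, and in astrocytes every interval of the 9 includes 0.

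The 32 genes listed for signalling from CSF1R cover its adaptors, kinases, phosphatases and targets, and 31 were tested between cell types. In WT mice 18 were higher in microglia, 7 were lower and 6 did not pass, and in KO mice 19, 6 and 6. Over all genes tested 29.1% were called higher and 24.5% lower in WT mice, and 31.9% and 25.1% in KO mice. The list's median difference was 0.76 in WT and 0.95 in KO mice, against 0.21 and 0.24 over all genes. The largest differences in WT mice were those of Tyrobp, the DAP12 adaptor (8.88), Ptpn6, the phosphatase SHP-1 (7.53), and Inpp5d, the phosphatase SHIP-1 (6.33). Limma's adjusted p for these were 2.66e-07, 6.79e-06 and 5.84e-06. The same 3 led in KO mice, at 7.29, 8.28 and 6.29. By genotype, 0 of 31 passed in microglia, with 2 at an unadjusted p under 0.05, against 7.96% of all genes tested. The median was 0.13, against 0.02 over all genes. Of the 31 differences 24 were positive, a count for which no share over all genes was computed. Inpp5d had the smallest p in microglia, at 99.8 ± 10.6 FPKM in WT and 148 ± 23.0 in KO (SD, n = 3 each; difference 0.56, limma adjusted p = 0.554). In astrocytes 0 of 22 passed, with 3 at an unadjusted p under 0.05, against 4.19% of all genes tested. Adam17, the protease that sheds CSF1 and CSF1R from the cell surface, had the smallest p there (difference -0.72, limma adjusted p = 0.921). For the difference between cell types in the genotype effect, 0 of 31 passed and Stat5b had the smallest p (1.13, limma adjusted p = 0.556).

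Of 37 partner and related transcription factors, 31 were tested between cell types. In WT mice 21 were higher in microglia, 3 were lower and 7 did not pass, and in KO mice 22, 3 and 6, against the same background of 29.1% higher and 24.5% lower in WT and 31.9% and 25.1% in KO mice. The median differences were 1.90 and 1.74, against 0.21 and 0.24 over all genes. Ikzf1 (6.62) and Maf (6.00), both factors of the blood and macrophage lineages, were among the largest differences in WT mice, with limma adjusted p of 5.76e-08 and 6.04e-08. They were among the largest in KO mice too, at 6.82 and 5.76. By genotype, 0 of 33 passed in microglia, with 2 at an unadjusted p under 0.05, against 7.96% of all genes tested. Cebpb, a factor induced in inflammatory activation, had the smallest p, at 40.2 ± 17.0 FPKM in WT and 16.9 ± 4.08 in KO microglia (SD, n = 3 each; difference -1.13, limma adjusted p = 0.573). In astrocytes 0 of 23 passed, with 2 at an unadjusted p under 0.05, against 4.19% of all genes tested. Hdac5, a class IIa deacetylase that binds MEF2 factors, had the smallest p there (difference 1.04, limma adjusted p = 0.921). For the difference in genotype effects 0 of 31 passed, and Sall3 had the smallest p (0.80, limma adjusted p = 0.751).

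Of 12 known target genes of PU.1, 12 were higher in microglia in WT and in KO mice, where 29.1% and 31.9% of all genes tested were. Csf3r (7.21), Lyz2 (7.09) and Itgam (6.96), which encodes the CD11b used in the sort, led in WT mice, with limma adjusted p of 6.17e-07, 6.33e-06 and 4.78e-06. Of 9 microglial signature genes known to need Sall1, 9 were higher in microglia in both genotypes, against the same shares over all genes. P2ry12 (7.81), Cx3cr1 (7.75) and Siglech (7.68) led in WT mice, with limma adjusted p of 2.99e-09, 8.18e-09 and 5.29e-08. By genotype, 0 of 12 and 0 of 9 passed in microglia, against 0.0818% of all genes tested. In astrocytes 0 of 5 and 0 of 6 passed, against 0.0224%. None of either list had an unadjusted limma p under 0.05, against 7.96% of all genes tested in microglia and 4.19% in astrocytes. The medians in microglia were -0.10 for the PU.1 targets and -0.02 for the genes that need Sall1, against 0.02 over all genes. In microglia the smallest p belonged to Fcgr1 (0.27, limma adjusted p = 0.629) and Siglech (0.31, limma adjusted p = 0.642). In astrocytes it belonged to Tlr4 (0.91, limma adjusted p = 0.921) and Siglech (0.89, limma adjusted p = 0.921). For the difference in genotype effects 0 of 12 and 0 of 9 passed, with Csf2ra (-1.01, limma adjusted p = 0.800) and P2ry13 (0.61, limma adjusted p = 0.756) at the smallest p.

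Among the other colony stimulating factors, Csf2 was listed at 0 in all 13 libraries and Csf3 was at 0 in all microglia and all WT astrocytes. Their receptor genes were all higher in microglia. In WT mice Csf3r, Csf2rb (4.03) and Csf2ra (3.84) passed, with limma adjusted p of 6.88e-08 for Csf2rb and 4.39e-05 for Csf2ra. In KO mice 3 of 3 passed as well. Over all genes tested 29.1% were called higher and 24.5% lower in WT mice, and 31.9% and 25.1% in KO mice. Csf2ra was not near 0 in astrocytes, with means of 6.45 FPKM in WT and 8.84 FPKM in KO. Csf2ra, at 85.4 ± 36.6 FPKM in WT and 51.6 ± 16.7 in KO microglia (SD, n = 3 each), did not pass by genotype (limma adjusted p = 0.658). Of the other kinases of the CSF1R class and their ligands, 7 were tested between cell types. In WT mice Pdgfb (3.41) and Flt3l were higher in microglia, with limma adjusted p of 3.37e-05 and 0.0422. Pdgfrb (-2.07) and Kit (-1.86) were lower, with limma adjusted p of 0.00126 and 0.0243. Kit varied widely in WT astrocytes, at 4.70 ± 4.88 FPKM (SD, n = 3), and its mean in KO astrocytes was 0.596 FPKM. In KO mice 2 were higher and 1, Pdgfrb, was lower. The WT counts, 2 higher and 2 lower of 7, lie close to the shares over all genes. None of this list passed by genotype, where 0.0818% of all genes tested did in microglia and 0.0224% in astrocytes. Flt3 had the smallest p in microglia (-0.32, limma adjusted p = 0.790) and Kitl in astrocytes (-1.04, limma adjusted p = 0.921).

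Among 8716 protein-coding genes with a mean of at least 5 FPKM, Ptgs1 and Pik3cd were among the 3 most like Csf1r over the 13 libraries, with Pearson r of log2(FPKM + 1) of 0.998 and 0.996. The genes most like Csf1 were Rnf166 (0.937), Ssr4 (0.925) and Ranbp3 (0.918). Rnf166 had means of 33.9 and 23.1 FPKM in WT and KO microglia and 5.24 and 11.4 FPKM in WT and KO astrocytes, the same order of groups as Csf1. Those most like Il34 were Tmem80 (0.909), Usp19 (0.907) and Evi5l (0.855), though with 5 libraries listed at 0 this likeness rests on low values. The 13 points share the split into cell types, so r mainly follows that split for Csf1r.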

How the data were processed

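Libraries were prepared from RNA of sorted cells by NuGEN RNA-Seq V2, per the labels' protocols. The tools in the submitters' processing notes are Cuffnorm, Cufflinks, DESeq2, HTSeq 0.6.1p1, Bowtie2 2.2.3 and TopHat2 2.0.11, with GRCm38 as build. Annotation and strandedness: not given in the sources used here. FPKM for 39171 genes in 13 libraries were deposited by the authors, with a scaling between libraries that is not stated. Per the file headers, the authors' tables for each cell type give mean normalised counts (a signal, not raw counts), log2 fold changes, their SE, a test score and p-values, and list only genes under an adjusted p of 0.05. Values were used as deposited.

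FPKM are not counts, so limma 3.58.1 in R 4.3.3 (lmFit, eBayes with trend, two-sided) was run on log2(FPKM + 1), which understates changes of low genes. Genes with a mean of at least 1 FPKM over the fitted libraries were kept, and the 9 genes and Il33 in any case. Of the 9, 8 passed that filter in microglia and over all libraries (not Il34) and 5 in astrocytes (not Il34, Spi1, Irf8 or Runx1). Benjamini-Hochberg adjustment ran over all genes tested in each of 5 comparisons, with a threshold of 0.05. Microglia were fitted alone, astrocytes alone with age, and comparisons of cell types and the difference of genotype effects in all 13 libraries with age. Exact permutation tests used scipy 1.17.1. The fitting code was tested on simulated data.

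Absolute depth is unknown. Steps in the lowest FPKM put depth at about 77.0 to 100% of KO microglia 2 in microglia and 33.6 to 62.6% in astrocytes, and no counting interval was computed. The series calls the samples biological replicates. Named genes are the 9 genes, Il33, the 3 genes most like each of Csf1r, Csf1 and Il34, both alternative receptors, and in each of 7 pathway lists up to 3 passing genes with the largest difference, or else the gene with the smallest p. Of the genes this rule takes, 2 are not reported here. A further 11 marker lists described the other cells. Positions came from GENCODE M21, which held 96.0% of the identifiers. Exons of Il34 and Runx1 overlap antisense genes and those of Mef2a overlap Lysmd4, so their values are uncertain without strand. The members and lists were chosen with earlier results of these data known. Alternatives were another pseudocount, filter or scaling, each library left out, a replicate block, age handling, Xist as a covariate for the unstated sex, and a joint fit.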

Additional observations from a re-analysis of the deposited data

Results flagged for a closer look

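Groups of 3 libraries were not tested for a library that stands apart, and the 4 KO astrocyte libraries were, with 1 test per gene over 9 genes. About 1 in 20 such tests is expected to pass by chance alone. Csf1 in KO astrocytes 4, at 42.1 FPKM, lay far above the other 3 libraries, with a gap of 0.972 of the group's range against a critical value of 0.829. Runx1 in KO astrocytes 1, at 2.47 FPKM, lay above the other 3 with a gap of 0.847 of the range.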

How the results depend on the processing

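All direction changes were in differences that never passed the test, and their causes were not tested. In KO minus WT microglia, Il34 (0.03) became -0.194 under quantile normalisation and ranged from -0.0348 to 0.0605 with a library left out, and Runx1 (0.13) from -0.0371 to 0.225. In KO minus WT astrocytes, Il34 (0.14) became -0.0619 under quantile normalisation and Mef2c (0.00) 0.0222 with a pseudocount of 0.1 and 0.308 with day 12 libraries only. With a library left out these ranged from -0.0793 to 0.318 and from -0.294 to 0.308, and Sall1 (0.19) from -0.223 to 0.559. In the difference of genotype effects, Irf8 (-0.18) became 0.0197 with a pseudocount of 5 and 0.00696 under quantile normalisation, and Mef2c (0.20) -0.111 with day 12 libraries only. There the ranges with a library left out were -0.409 to 0.0995 for Irf8, -0.111 to 0.491 for Mef2c, -0.289 to 0.108 for Il34, -0.455 to 0.0164 for Runx1 and -0.237 to 0.546 for Sall1.

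The number of the 9 genes called was 0, 0, 8 and 0 for genotype in microglia, genotype in astrocytes, WT cell types and the difference of effects under each alternative run. For KO cell types it was 7, except 8 without KO astrocytes 4 and with the replicate block. The block sets KO astrocytes 4 aside as well, so these are not 2 independent alternatives. Csf1 in KO minus WT microglia ranged from -1.23 (Xist as a covariate, limma adjusted p = 0.0503) to -0.67 (without WT microglia 3), with adjusted p up to 0.955. Within libraries, p rose to 0.25 with WT libraries only, where Csf1 minus Il34 was 3.24 in astrocytes and 5.51 in microglia and Mef2c minus Mef2a -2.16 and -1.27. With a library left out these were 3.40 to 3.72, 4.91 to 5.18, -2.02 to -1.60 and -1.29 to -1.23, and 5 microglia libraries cannot give an exact p below 0.0625.

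Replicate numbers showed no pairing: same-numbered libraries correlated at -0.0791 to 0.0277 in their deviations. With the replicate block 0, 0, 8, 8 and 0 of the 9 genes were called in the 5 comparisons, Csf1 between KO cell types being 0.87 (limma adjusted p = 0.0481). In that fit Il34 and Mef2c in KO minus WT astrocytes were -0.0619 and 0.0258, and Il34 in the difference of effects was 0.0906. The same values came from leaving out KO astrocytes 4, the only library with its replicate number, which the block therefore sets aside.

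Over all genes, calls for genotype in microglia (13) became 25 with a pseudocount of 0.1, 7 without a filter, 3 with the block, 258 with Xist, 37 in the joint fit and 18 to 48 with a library left out. Those in astrocytes (3) became 5, 0, 0 with the block, 0 with day 12 libraries only, 7 jointly and 0 to 8 with a library left out. Those for the difference of effects (23) became 37 without a filter, 13 with a mean of at least 5 FPKM, 1 with the block and 15 to 75 with a library left out.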
